A study of Mus musculus with 12 samples.

Results

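The genes described here are the 33 mouse genes that encode the Mediator complex, and the measurement is the binding of 2 Mediator proteins, MED1 and MED24, at those genes. For each protein, the peaks of its 4 libraries were merged into regions wherever they overlapped by at least 1 bp. A region belonged to a Mediator gene when that gene's annotated span was the nearest protein-coding span (mm10, within 100 kb). This gave 119 of 65291 MED1 regions and 115 of 66123 MED24 regions, and each of the 33 genes, among 21883 protein-coding genes used, had at least 1 region of each protein. A region equally near to a Mediator gene and a neighbour was counted for the Mediator gene, which concerns 9 regions of each protein. Among them are the regions at the starts of Med19, Med20, Med22, Med29 and Med31 and at an end of Med8.

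The cells were E14tg2a mouse embryonic stem cells of the 129SV background with a stably integrated cRAF-ErT2 cassette, a RAF kinase fused to a hormone-binding domain so that 4-hydroxytamoxifen (4OHT) switches on ERK signalling. They were grown in serum with LIF and 2 µM Chir99021, then moved for 24 h to serum with LIF and 250 nM PD173074, an FGF receptor inhibitor. The treated groups received 250 nM 4OHT for 2 h and the control groups (0 h) were left without it. Each group comprised clone a and clone b, and there were 4 groups: MED1 at 2 h, MED1 at 0 h, MED24 at 2 h and MED24 at 0 h. MED1 was precipitated with an antibody to the protein itself, and MED24 with anti-FLAG.

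Treated and control cells alike carried the cassette and had PD173074 in the medium, and no vehicle or cassette-free library was analysed here, so 4OHT, elapsed time and ERK activation cannot be told apart. In the MED24 lists the names of the peaks hold a FLAG tag but also a folder name of another cofactor, EP300; the labels, which say MED24, were followed. The libraries held 43949 and 47305 MED1 peaks at 2 h, against 38668 and 37483 at 0 h (clone a, then clone b), and 42445 and 48931 MED24 peaks at 2 h, against 41689 and 38398 at 0 h. Read depth is unknown. Of 8 embryonic stem cell marker genes, 6 had a peak within 1 kb of a start in all 8 libraries, against 0 of 8 fibroblast marker genes. In all 4 MED1 libraries the counts were 7 and 1, against 47.7% of all protein-coding genes. Only 3 of the fibroblast genes had no such peak in any library. Among the stem cell genes, Esrrb, a naive pluripotency gene, had none in any library.

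Mediator is a large assembly that bridges transcription factors bound at enhancers and RNA polymerase II at promoters. Its head and middle modules contact the polymerase, its tail receives many activators, Med14 is the backbone that ties them together, and a separable kinase module (CDK8 or CDK19 with cyclin C, MED12 and MED13) docks reversibly on the core. In embryonic stem cells Mediator is known for dense occupancy at the enhancers of pluripotency genes. Its own genes are expressed in most cell types.

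Promoters of 28 of the 33 genes were matched in a RefSeq table (GRCm38.p6), each running from 250 bases before to 50 after a start. Those below are shown because the region on them was called at one time and not at the other or shifted in rank in both clones (Med14, Med15, Med26, Med27, Med31, Ccnc), because the protein was precipitated (Med1), or because they belong to the paralogues of the kinase module. Capitals mark matches, on either strand, to CCGGAA (the core of ETS factor sites), GGGCGG (GC box) or CACGTG (E-box), so a match on the other strand reads TTCCGG or CCGCCC.
Med14 (chrX:12761924-12762223, minus strand): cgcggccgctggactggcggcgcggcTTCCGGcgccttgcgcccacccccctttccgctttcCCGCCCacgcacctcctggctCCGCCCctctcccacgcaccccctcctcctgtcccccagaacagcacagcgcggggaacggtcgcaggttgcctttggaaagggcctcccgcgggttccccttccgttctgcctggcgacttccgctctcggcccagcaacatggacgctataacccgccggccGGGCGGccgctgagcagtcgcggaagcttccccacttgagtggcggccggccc
Med15 (chr16:17722851-17723150, minus strand): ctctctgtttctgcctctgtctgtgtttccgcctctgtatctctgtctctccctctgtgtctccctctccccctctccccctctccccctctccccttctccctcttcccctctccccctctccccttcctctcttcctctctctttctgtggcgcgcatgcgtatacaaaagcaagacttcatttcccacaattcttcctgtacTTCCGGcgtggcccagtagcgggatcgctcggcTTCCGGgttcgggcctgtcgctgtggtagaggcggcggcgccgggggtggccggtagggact
Med26 (chr8:72548261-72548560, minus strand): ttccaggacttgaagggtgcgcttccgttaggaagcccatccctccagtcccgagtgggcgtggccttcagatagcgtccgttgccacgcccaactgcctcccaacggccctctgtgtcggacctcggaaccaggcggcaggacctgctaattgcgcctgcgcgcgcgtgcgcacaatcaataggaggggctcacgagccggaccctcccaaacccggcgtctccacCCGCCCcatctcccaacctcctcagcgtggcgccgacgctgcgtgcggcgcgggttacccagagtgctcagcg
Med27 (chr2:29346560-29346859, plus strand): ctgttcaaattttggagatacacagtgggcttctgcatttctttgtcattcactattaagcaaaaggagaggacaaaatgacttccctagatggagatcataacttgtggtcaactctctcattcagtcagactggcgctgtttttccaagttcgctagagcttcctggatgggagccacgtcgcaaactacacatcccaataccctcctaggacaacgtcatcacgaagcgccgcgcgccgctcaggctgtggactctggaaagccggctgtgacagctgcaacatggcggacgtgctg
Med31 (chr11:72215543-72215842, minus strand): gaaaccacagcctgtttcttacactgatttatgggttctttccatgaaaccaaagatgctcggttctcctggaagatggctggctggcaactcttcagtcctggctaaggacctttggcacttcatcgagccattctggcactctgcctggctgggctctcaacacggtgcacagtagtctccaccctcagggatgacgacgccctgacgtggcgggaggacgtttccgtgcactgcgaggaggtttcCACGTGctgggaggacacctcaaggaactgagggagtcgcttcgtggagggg
Ccnc (chr4:21727451-21727750, plus strand): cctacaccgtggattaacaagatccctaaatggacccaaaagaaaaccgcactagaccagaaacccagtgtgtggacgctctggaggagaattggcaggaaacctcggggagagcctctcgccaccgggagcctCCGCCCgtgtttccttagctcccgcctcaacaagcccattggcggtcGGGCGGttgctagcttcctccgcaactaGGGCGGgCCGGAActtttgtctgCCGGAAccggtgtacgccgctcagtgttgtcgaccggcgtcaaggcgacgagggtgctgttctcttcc
Med1 (chr11:98192857-98193156, minus strand): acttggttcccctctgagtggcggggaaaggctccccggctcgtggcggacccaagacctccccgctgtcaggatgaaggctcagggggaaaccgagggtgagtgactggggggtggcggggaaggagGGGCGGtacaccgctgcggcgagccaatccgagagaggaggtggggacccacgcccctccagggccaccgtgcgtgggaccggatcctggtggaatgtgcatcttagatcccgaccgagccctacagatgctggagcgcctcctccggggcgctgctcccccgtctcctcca
Med12 (chrX:101273841-101274140, plus strand): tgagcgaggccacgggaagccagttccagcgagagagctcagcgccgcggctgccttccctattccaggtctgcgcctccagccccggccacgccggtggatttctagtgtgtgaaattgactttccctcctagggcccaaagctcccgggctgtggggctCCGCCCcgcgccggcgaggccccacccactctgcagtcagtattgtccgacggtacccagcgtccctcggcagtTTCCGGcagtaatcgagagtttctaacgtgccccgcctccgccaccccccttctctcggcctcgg
Med12l (chr3:59006728-59007027, plus strand): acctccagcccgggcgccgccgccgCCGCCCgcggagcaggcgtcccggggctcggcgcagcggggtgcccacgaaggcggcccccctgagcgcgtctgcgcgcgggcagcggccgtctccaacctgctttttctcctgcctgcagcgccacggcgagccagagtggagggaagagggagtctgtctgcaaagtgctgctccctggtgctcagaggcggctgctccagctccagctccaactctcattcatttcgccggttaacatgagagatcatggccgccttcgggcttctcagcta
Med13 (chr11:86357547-86357846, minus strand): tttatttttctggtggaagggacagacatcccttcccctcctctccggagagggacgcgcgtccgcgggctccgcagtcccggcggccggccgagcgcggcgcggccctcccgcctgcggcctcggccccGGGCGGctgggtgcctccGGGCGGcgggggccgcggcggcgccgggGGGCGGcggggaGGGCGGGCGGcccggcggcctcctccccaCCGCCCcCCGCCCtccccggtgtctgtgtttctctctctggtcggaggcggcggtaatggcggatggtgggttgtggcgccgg
Med13l (chr5:118560469-118560768, plus strand): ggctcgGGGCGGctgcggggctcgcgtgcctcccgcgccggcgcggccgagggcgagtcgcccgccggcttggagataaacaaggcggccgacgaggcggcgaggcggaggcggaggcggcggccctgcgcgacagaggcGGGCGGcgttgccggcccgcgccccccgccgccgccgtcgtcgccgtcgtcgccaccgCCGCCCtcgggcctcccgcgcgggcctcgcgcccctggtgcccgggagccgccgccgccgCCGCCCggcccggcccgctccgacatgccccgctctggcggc
Cdk8 (chr5:146231000-146231299, plus strand): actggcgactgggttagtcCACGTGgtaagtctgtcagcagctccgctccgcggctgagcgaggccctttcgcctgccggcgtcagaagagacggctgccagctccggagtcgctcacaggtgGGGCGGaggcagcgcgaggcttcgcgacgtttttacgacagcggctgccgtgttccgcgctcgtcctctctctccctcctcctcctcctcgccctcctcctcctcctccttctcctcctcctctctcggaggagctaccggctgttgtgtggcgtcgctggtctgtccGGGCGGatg

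The ETS core CCGGAA was found in the promoters of 14 of the 28 genes (50%), against 20.9% of all 17491 genes in the table and against 34.7% and 35.4% of the genes whose start was called in all 4 libraries of MED1 and of MED24. The GC box was found in 19 of 28 (67.9%), against 49.2% of all genes and 73.7% and 73.1% of genes with a called start. Among the promoters shown, Ccnc and Med15 carry a pair of ETS cores each, at 34 and 18 bases before the start in Ccnc and at 45 and 12 bases before it in Med15. From another annotated start of Med15 the same cores lie 2 and 35 bases after it. Med7 and Med10, which are not shown, also hold more than 1 ETS core. Med13 holds 7 GC boxes, of which a pair overlap. Med27 holds no match to any of the motifs searched, nor do Med16 and Med25, which are not shown. The E-box was found in 4 of 28 genes (14.3%, against 8.91% of all genes), the AP-1 motif TGANTCA in 2 (7.14%, against 8.12%), the CRE motif TGACGTCA in 1 (3.57%, against 2.54%) and the ESRRB motif TCAAGGTCA in 0 (against 0.377%). The median GC content was 57.8% over the 32 Mediator promoters in the table and 56.3% over all 21262 promoters. These matches are letters in a window and were not tested as binding sites.

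The starts of nearly all Mediator genes were occupied at both times. Of the 33 genes, 31 had a peak within 1 kb of a start in all 8 libraries (for the 5 genes without a promoter entry, Cdk19, Med8, Med23, Med24 and Med30, within 1 kb of either end of the span). For MED1 the count was 32 of 33 in all 4 libraries, against 47.7% of all protein-coding genes, and for MED24 it was 31 of 33, against 44.9%. The general transcription factor genes (18 of 18 in all 8 libraries) and the RNA polymerase II subunit genes (11 of 12) also had called starts, as did 15 of 16 pause release genes and 8 of 10 genes of cohesin and its loader. The exceptions among the Mediator genes were Med27 and Med15.

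**Figure D1:**
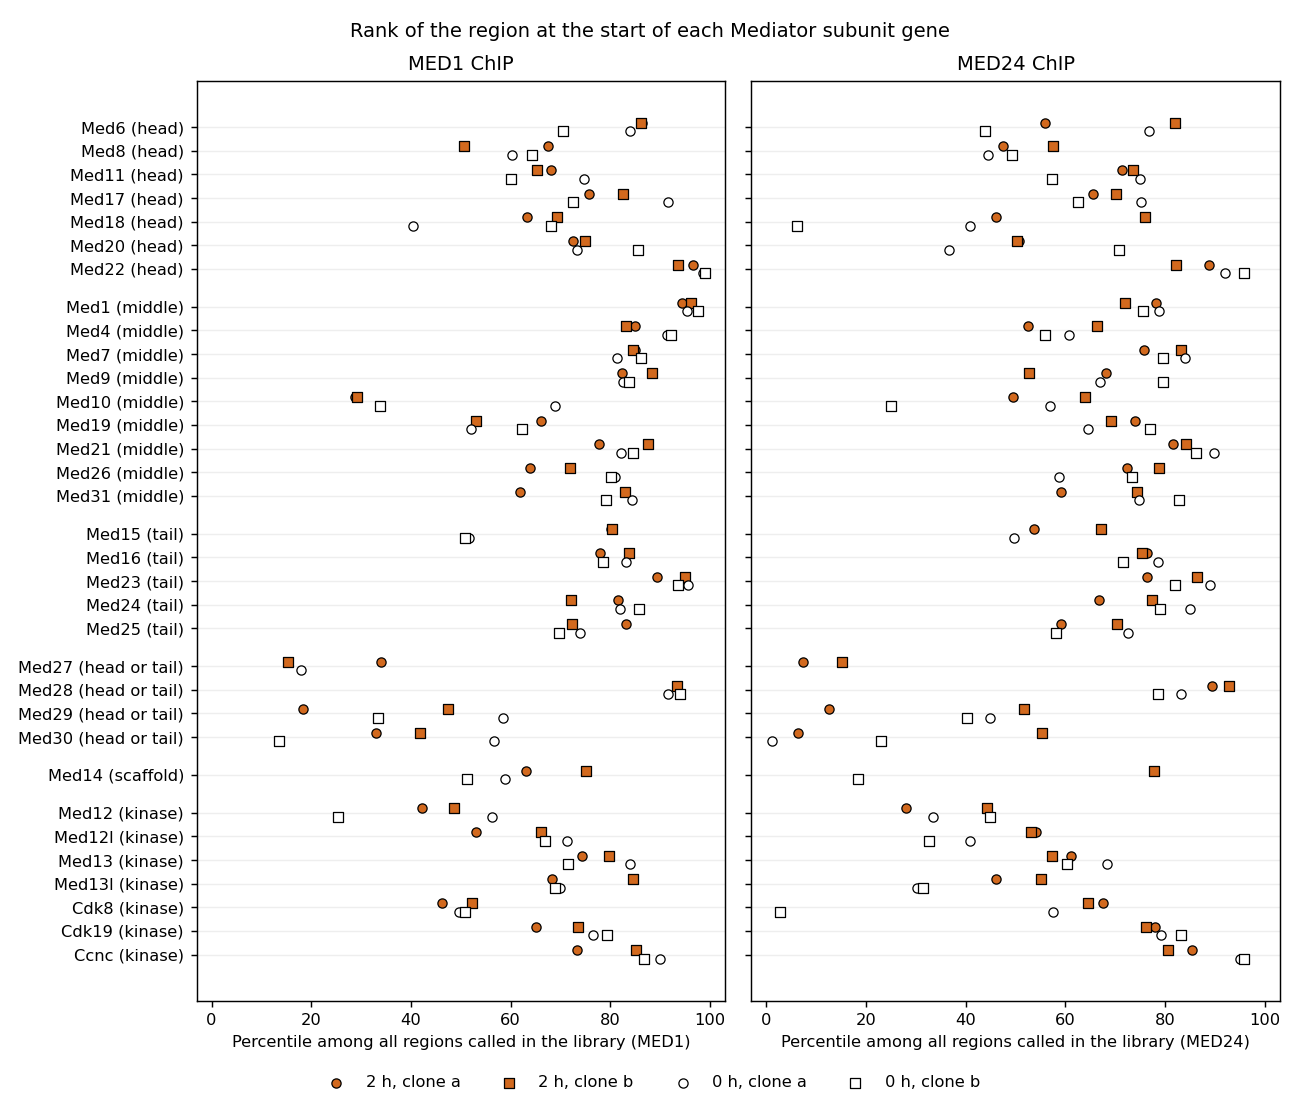
Percentile of the region at the start of each Mediator gene among all regions called in the library (x axis, 100 is the highest), for MED1 (left) and MED24 (right); filled symbols are 2 h, open symbols 0 h, circles clone a and squares clone b, and a missing symbol means no call. Most starts sit in the upper part of their library at both times, and the Med14 start in MED24 lies near 78 in both 2 h libraries and near 18 in both 0 h libraries.

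Peaks were ranked inside each library, by −log10 p for MED1 and by the peak score for MED24, and ranks are given as percentiles in which 100 is the top. The start of Med22, a head subunit gene, stood among the highest: its MED1 percentiles were 96.6 and 93.6 at 2 h in clones a and b, against 98.6 and 99.1 at 0 h. This region ties with the neighbouring gene Rpl7a, so its rank cannot be credited to Med22 alone. The start of Med1 itself, the subunit that contacts nuclear receptors, had MED1 percentiles of 94.5 and 96.2 at 2 h, against 95.4 and 97.5 at 0 h, and MED24 percentiles of 78.2 and 72.0 at 2 h, against 78.9 and 75.5 at 0 h. The 2 h and 0 h values of the Med1 start overlapped in both proteins.

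At the Med24 gene, a tail subunit, the region at the higher end of the span had MED1 percentiles of 81.5 and 72.0 at 2 h, against 81.9 and 85.7 at 0 h, and MED24 percentiles of 66.7 and 77.3 at 2 h, against 85.0 and 79.0 at 0 h. The MED24 values at 2 h were lower in both clones. At the low end of the scale stood Med29, with MED1 percentiles of 18.3 and 47.5 at 2 h, against 58.4 and 33.5 at 0 h, and Med30, with MED24 percentiles of 6.26 and 55.4 at 2 h, against 1.07 and 22.9 at 0 h. At the Med29 start clone a was lower at 2 h and clone b higher, and at the Med30 start the clones stood far apart at both times.

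Med27 had the start with the fewest calls. MED24 was called there only at 2 h, at percentiles of 7.29 and 15.1 in clones a and b. MED1 was called at 34.0 and 15.4 at 2 h and, at 0 h, at 17.9 in clone a and not at all in clone b. The start of Med15, whose product receives activators in the tail, had MED1 percentiles of 80.1 and 80.2 at 2 h, against 51.6 and 50.9 at 0 h; MED24 gave 53.8 and 67.1 at 2 h, against 49.7 in clone a and no call in clone b at 0 h. For Med15 the 2 h values lay above the 0 h values in both proteins.

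Regions at the starts were stable as calls. Of the 34 MED1 regions within 1 kb of a start of a Mediator gene, 33 (97.1%) were retained, meaning called in all 4 libraries, against 66.2% of all such regions; 0 were gained, meaning called in both 2 h libraries and in neither 0 h library, against 4.4%. Of the 34 MED24 regions, 31 (91.2%) were retained, against 62.8%, and 1 was gained, at Med27, against 7.06%. No start region was lost, the reverse of gained. No test was made on single regions.

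Away from the starts fewer regions were called in all 4 libraries. Of 85 such MED1 regions, 21 (24.7%) were gained, 5 (5.88%) lost and 21 (24.7%) retained, against 21.1%, 7.95% and 20.7% of all assigned regions away from a start. Of 81 such MED24 regions, 20 (24.7%) were gained, 8 (9.88%) lost and 16 (19.8%) retained, against 18.6%, 10.4% and 24%. Without Med13l the gained shares were 11 of 58 in MED1 (19.0%) and 10 of 57 in MED24 (17.5%), both below those backgrounds.

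Over starts and other regions together, 21 MED1 regions (17.6%) were gained, against 17% of all assigned regions, and 5 (4.20%) were lost, against 6.53%. For MED24, 21 (18.3%) were gained, against 15.8%, and 8 (6.96%) were lost, against 8.3%. Both gained shares and both lost shares are near their backgrounds. Retained regions made up 54 of 119 for MED1 (45.4%, against 31.9%) and 47 of 115 for MED24 (40.9%, against 33.4%), and the remaining 39 of each protein showed other patterns of calls. Gained regions lay at 9 of the 33 genes in MED1 and 10 in MED24, against 35.8% and 35.1% of all genes with a region of the protein, and lost regions at 4 in each, against 17.8% and 21.6%. These counts lean on the requirement that both clones agree: with clone a at 2 h left out, 34 MED1 regions counted as gained, and with clone a at 0 h left out, 15 MED1 and 17 MED24 regions counted as lost. With the clones paired, that is, counted within each clone and averaged, 15 MED1 and 19 MED24 regions were lost.

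**Figure D2:**
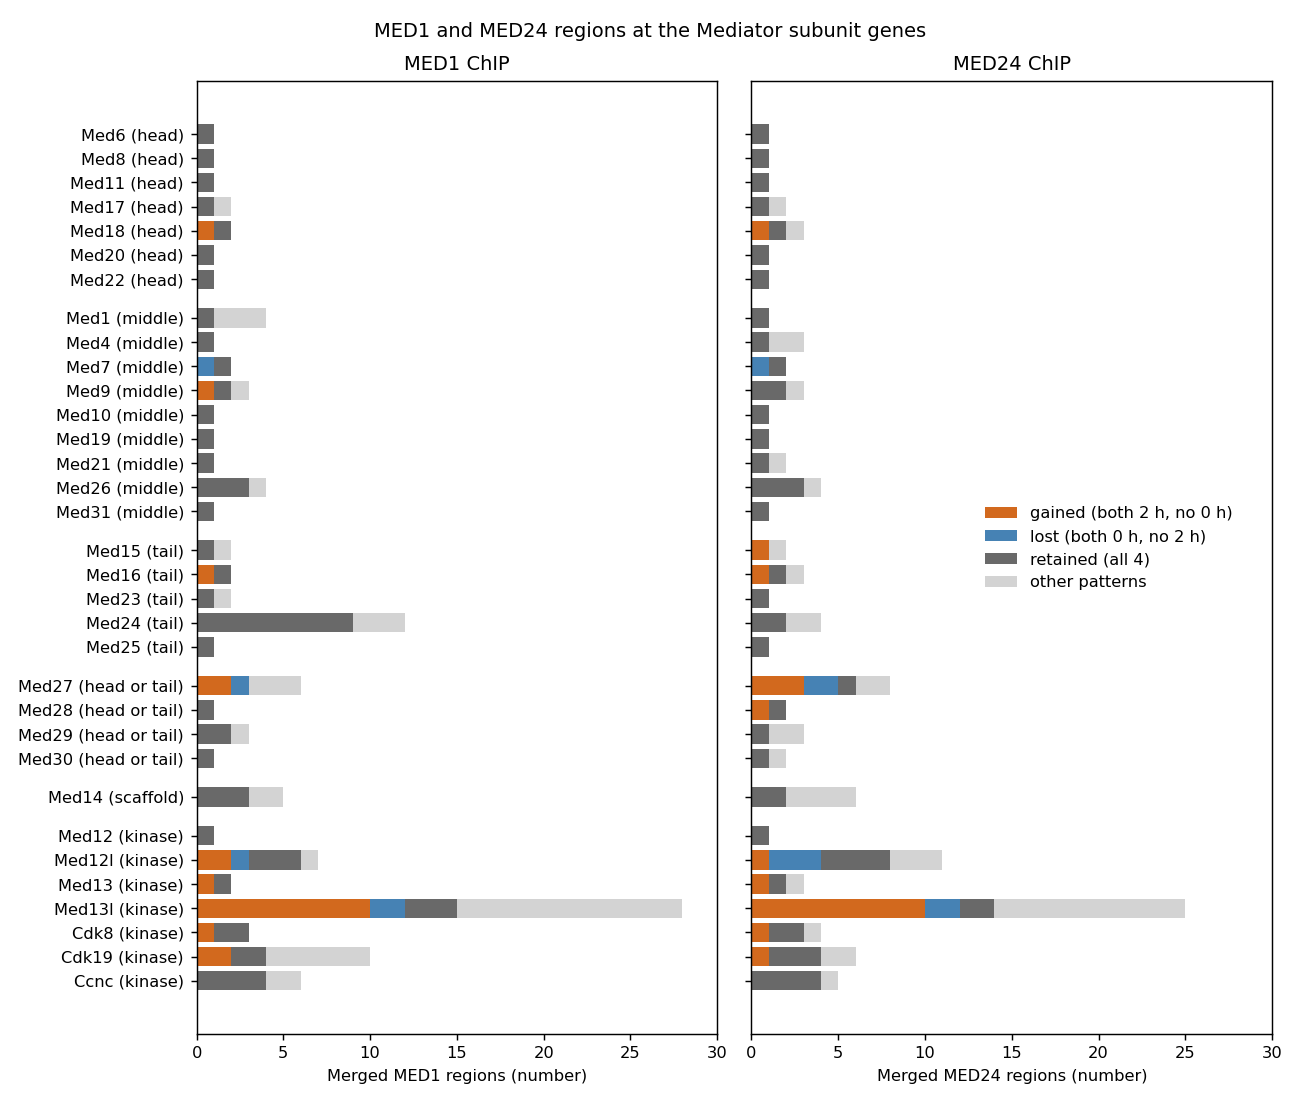
Number of merged regions (x axis) at each of the 33 Mediator genes, grouped by module, for MED1 (left) and MED24 (right), with gained regions in orange, lost in blue, retained in dark grey and other patterns in light grey. Med13l has the longest bar in both proteins, 28 and 25 regions with 10 gained in each, while 14 genes in MED1 and 12 in MED24 have a single region.

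For 21 of the 33 genes no region was gained or lost in either protein, against 43.2% of all genes with a region of both proteins, a share that also depends on how many regions a gene has: Med6, Med8, Med11, Med17, Med20 and Med22 of the head, Med1, Med4, Med10, Med19, Med21, Med26 and Med31 of the middle, Med23, Med24 and Med25 of the tail, Med29, Med30, the scaffold gene Med14, and Med12 and Ccnc of the kinase module. A Mediator gene had a median of 2 regions in each protein. Its median span was 18.0 kb, against 17.2 kb for all protein-coding genes.

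The number of peaks at Mediator genes was higher at 2 h, as was the number in the whole library. Clones a and b had 86 and 101 such MED1 peaks at 2 h, against 76 and 79 at 0 h; the means were 93.5 ± 10.6 at 2 h and 77.5 ± 2.12 at 0 h (SD, n = 2 each), a difference of 16 (two-sided exact permutation p = 0.333). MED24 libraries had 79 and 89 at 2 h, against 77 and 75 at 0 h, with means of 84 ± 7.07 at 2 h and 76 ± 1.41 at 0 h (SD, n = 2 each), a difference of 8 (two-sided exact permutation p = 0.333). The groups did not overlap, but 0.333 is the smallest p that 2 libraries against 2 can give. Without Med13l the differences were 7.5 for MED1 and 1.5 for MED24. Dropping clone b at 2 h left 8.5 and 2, and dropping clone a at 2 h left 24.5 and 13. When each library was limited to its 20000 best peaks, the difference turned to -2 for MED1 and was 2 for MED24.

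As a share of all peaks in the library, MED1 peaks at Mediator genes made up 0.196% and 0.214% at 2 h, against 0.197% and 0.211% at 0 h (two-sided exact permutation p = 1). MED24 peaks made up 0.186% and 0.182% at 2 h, against 0.185% and 0.195% at 0 h (two-sided exact permutation p = 0.667). The groups overlapped in both proteins, and the direction of these differences changed with the settings given in the closing section. Each p-value is the share of ways to divide the 4 libraries 2 against 2 that gave a difference at least as large. It makes no use of the pairing of clones across the times.

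The kinase module held more regions, and more gained ones, than any other module in both proteins. It had 57 of the 119 MED1 regions, with 16 gained, 3 lost and 16 retained, and 55 of the 115 MED24 regions, with 14 gained, 5 lost and 17 retained. Counting only regions away from a start, 16 of 50 kinase module regions were gained in MED1 (32%), against 5 of 35 at the other modules (14.3%), and 14 of 48 in MED24 (29.2%), against 6 of 33 (18.2%). Without Med13l the kinase module counts away from a start were 6 of 23 in MED1 (26.1%) and 4 of 24 in MED24 (16.7%). The MED24 share without Med13l was thus below that of the other modules, and the difference between modules was not tested. The 7 kinase module genes are long: they span from 24.8 kb (Med12) to 313 kb (Med12l), against a median of 18.0 kb over the 33 genes. Counts of regions by module were not adjusted for span.

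Med13l encodes a paralogue of MED13, the subunit that tethers the kinase module to the core, and spans chr5:118560330-118765438 on the plus strand. It had 28 MED1 regions, called 16 and 20 times at 2 h in clones a and b, against 9 and 9 at 0 h, and 25 MED24 regions. In each protein 10 were gained, of which 7 overlapped a region gained in the other protein, and 2 were lost, both of them lost in the other protein as well. Gained regions lay before, inside and beyond the gene: in MED1 at 93.4 and 48.1 kb before it, at 2.94, 31.2, 52.3, 92.1 and 193 kb from the start inside it, and at 44.2, 73.0 and 74.5 kb beyond its end.

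The highest ranked of the Med13l gains lay at chr5:118511800-118512230 in MED1, with percentiles of 65.9 and 81.7 at 2 h and no call at 0 h, and the overlapping MED24 region had 87.0 and 81.0 at 2 h and no call at 0 h. Its neighbour less than 1 kb away, chr5:118510846-118511458, was called in all 4 MED1 libraries at percentiles of 28.9 and 61.5 at 2 h, against 67.3 and 66.1 at 0 h. The MED24 region there was called in all 4 libraries as well, at 14.4 and 41.2 at 2 h, against 51.7 and 32.5 at 0 h, lower at 2 h in clone a and higher in clone b. Inside the gene, the region at chr5:118591875-118592161 had MED24 percentiles of 34.5 and 68.1 at 2 h and was not called at 0 h.

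The lost Med13l regions lay on both sides of the gene. Beyond its end, chr5:118815770-118816399 had MED1 percentiles of 38.8 and 46.6 at 0 h and no call at 2 h, and its MED24 counterpart 70.9 and 82.3 at 0 h and no call at 2 h. Before the gene, chr5:118481034-118481679 had MED1 percentiles of 27.2 and 53.0 at 0 h only, and its MED24 counterpart 43.3 and 19.7 at 0 h only. The start of Med13l was retained, with MED1 percentiles of 68.3 and 84.5 at 2 h, against 70.0 and 68.8 at 0 h, and MED24 percentiles of 46.0 and 55.0 at 2 h, against 30.3 and 31.5 at 0 h.

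**Figure D3:**
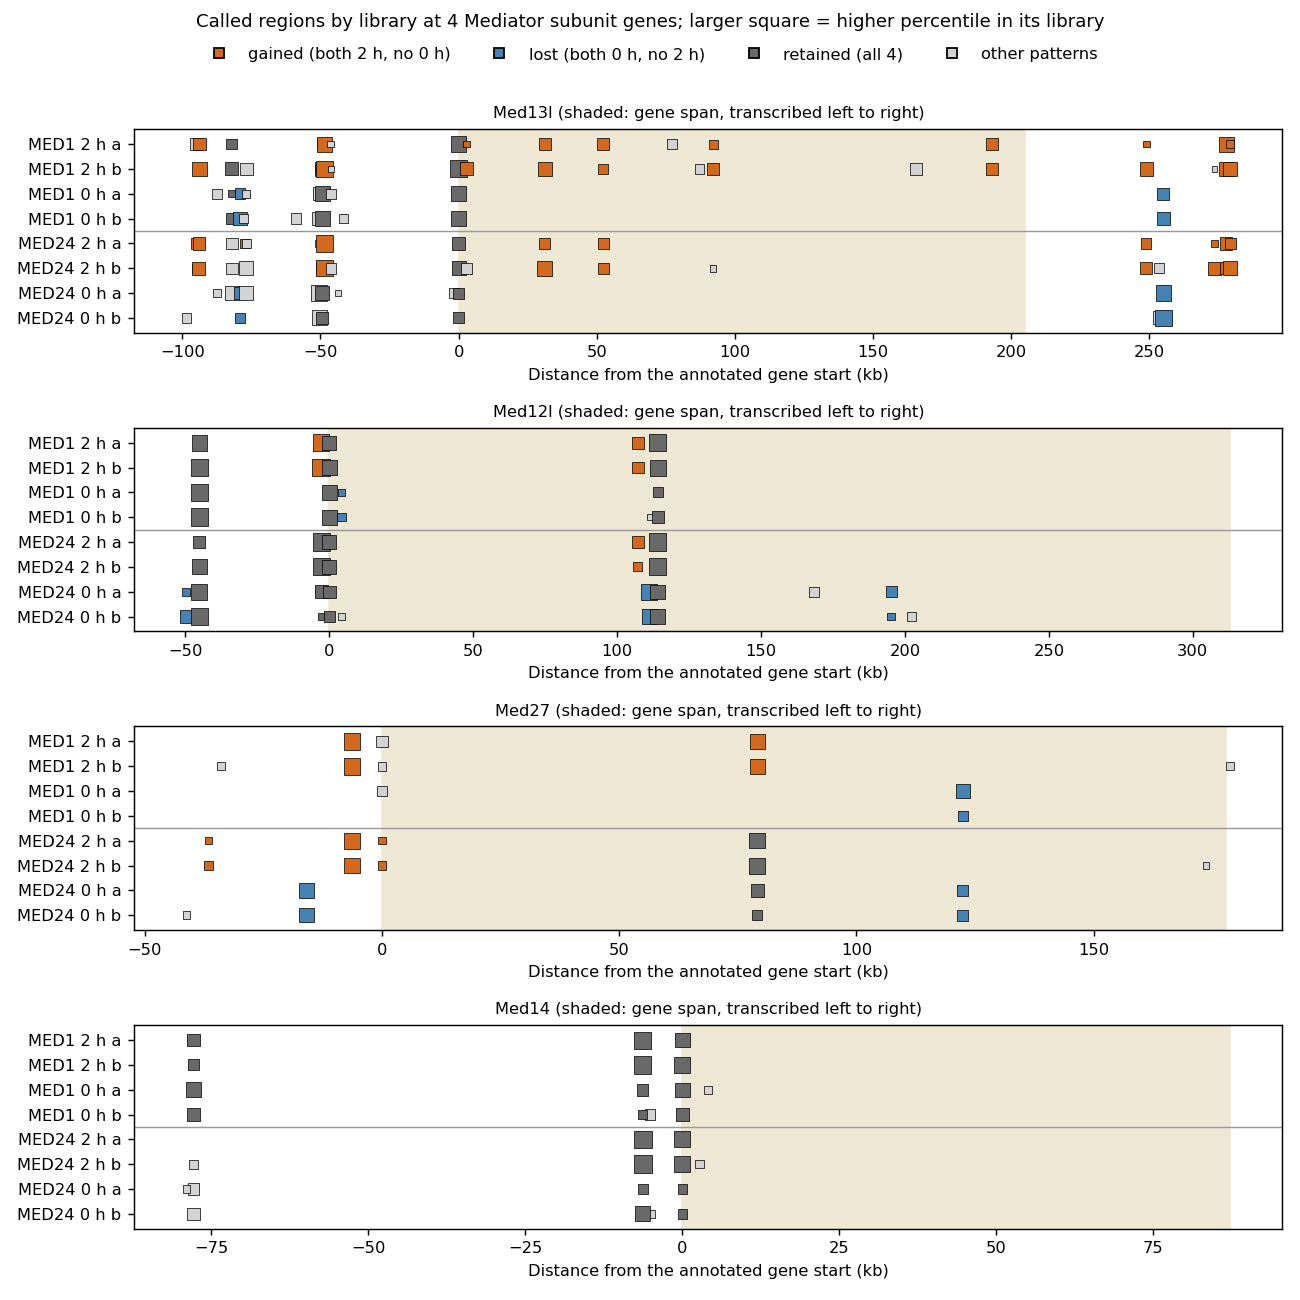
Regions called in each of the 8 libraries at Med13l, Med12l, Med27 and Med14, from top to bottom, plotted by distance from the annotated gene start (x axis, kb, negative is upstream), with the gene span shaded; each row is a library, larger squares are higher percentiles, and colours are the classes gained, lost, retained and other. Orange squares fill only 2 h rows and blue squares only 0 h rows by definition, and at Med13l they are spread from before the gene to beyond its end in both proteins.

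Med12l, a paralogue of MED12 (the subunit that activates CDK8), spans chr3:59005419-59318446 on the plus strand and encloses other genes, P2ry13 and P2ry14 among them. Directly before the gene, chr3:59003647-59004072 was gained in MED1, with percentiles of 82.4 and 90.4 at 2 h and no call at 0 h. The same place was called in all 4 MED24 libraries, at 89.3 and 87.1 at 2 h, against 47.2 and 1.84 at 0 h. In both proteins the 2 h libraries were the high ones.

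Inside Med12l, where the region ties with P2ry14, chr3:59121041-59121590 had MED1 percentiles of 81.5 and 76.4 at 2 h, against 24.5 and 35.9 at 0 h, and the MED24 region had 89.0 and 88.1 at 2 h, against 59.3 and 72.2 at 0 h. Nearby, chr3:59118133-59118600 was lost in MED24, with percentiles of 77.5 and 64.2 at 0 h and no call at 2 h; in MED1 it was called only in clone b at 0 h, at 1.96. In the opposite direction to the region near P2ry14, chr3:58960953-58961828, 43.6 kb before the gene, was lower at 2 h: its MED1 percentiles were 74.0 and 78.3 at 2 h, against 88.9 and 94.9 at 0 h, and its MED24 counterpart had 40.8 and 63.1 at 2 h, against 76.7 and 83.6 at 0 h. A weak MED1 region inside the gene, chr3:59011207-59011450, was lost, with 8.79 and 13.5 at 0 h only. At the start itself MED1 percentiles were 53.0 and 66.1 at 2 h, against 71.3 and 66.9 at 0 h, while MED24 percentiles were 54.1 and 53.1 at 2 h, against 40.8 and 32.5 at 0 h.

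Cdk19 and Cdk8 encode the paralogous kinases of the module. Cdk19 had the highest ranked gained region of all Mediator genes in both proteins, at chr10:40521479-40522005, 37.7 kb beyond the higher end of its span. The MED1 percentiles there were 86.3 and 94.1 at 2 h, and the MED24 percentiles were 88.4 and 92.4 at 2 h, with no call at 0 h in either protein. Inside Cdk19, chr10:40425551-40426119 was lower at 2 h in MED24, at 17.3 and 33.3, against 52.7 and 58.2 at 0 h. The MED1 region there was called in clone b alone at 2 h, at 41.1, against 64.4 and 60.0 at 0 h. A further MED1 gain inside the gene, chr10:40370245-40370654, had 67.5 and 31.0 at 2 h and no MED24 region.

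Cdk8 gained a region of moderate rank 4.24 kb beyond its end, at chr5:146307115-146307537, with MED1 percentiles of 30.6 and 29.2 and MED24 percentiles of 47.5 and 41.2, all at 2 h. Its start had MED1 percentiles of 46.2 and 52.2 at 2 h, against 49.7 and 50.8 at 0 h. MED24 there had 67.6 and 64.6 at 2 h, against 57.5 and 2.63 at 0 h, so that clone b at 0 h stood apart from the other libraries. Med13 gained a region 24.0 kb before its start in MED1, at chr11:86381573-86381918, with 38.5 and 70.0 at 2 h, and MED24 was gained at the same place with 40.8 and 50.7.

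Ccnc, which encodes cyclin C, had no gained or lost region. Its strongest region was not the start but chr4:21722463-21723888, 3.81 kb before the gene, with MED1 percentiles of 99.3 and 99.5 at 2 h, against 95.9 and 96.4 at 0 h, and MED24 percentiles of 99.5 and 99.6 at 2 h, against 97.0 and 96.8 at 0 h. The Ccnc start went the other way, with MED24 percentiles of 85.4 and 80.5 at 2 h, against 94.9 and 95.9 at 0 h, and MED1 percentiles of 73.2 and 85.2 at 2 h, against 90.0 and 86.9 at 0 h. Another region, chr4:21712201-21712543, had MED1 percentiles of 61.1 and 75.9 at 2 h, against 48.4 and 62.0 at 0 h; in MED24 it had 96.5 and 94.2 at 2 h, against 97.7 and 97.3 at 0 h. Med12 had its start as its only region in each protein, with MED1 percentiles of 42.1 and 48.6 at 2 h, against 56.2 and 25.3 at 0 h.

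Outside the kinase module, Med27 had the most differences in calls. Sources place Med27, Med28, Med29 and Med30 in the head or in the tail, so these genes were kept apart: together they had 11 MED1 regions (2 gained, 1 lost, 4 retained) and 15 MED24 regions (4 gained, 2 lost, 4 retained). Before Med27, chr2:29340076-29340443 was gained in both proteins, with MED1 percentiles of 81.4 and 82.6 and MED24 percentiles of 79.5 and 69.6 at 2 h, although the start 6.37 kb away ranked low. Inside the gene, chr2:29457634-29458879 was gained in MED1, at 64.3 and 63.5, while the MED24 region there was retained, at 70.9 and 76.8 at 2 h, against 45.4 and 20.1 at 0 h.

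Med27 also lost regions. Inside it, chr2:29500907-29501367 had MED1 percentiles of 53.1 and 25.3 and MED24 percentiles of 31.2 and 29.9, all at 0 h, with no call at 2 h. Before it, chr2:29330549-29330873 had MED24 percentiles of 67.6 and 59.2 at 0 h only and no MED1 region. Med28 gained a MED24 region 3.51 kb before its start, at chr5:45516218-45516718, with 57.6 and 61.8 at 2 h, and the MED1 region there was also gained but lay nearest to a neighbouring gene.

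Med14, the backbone of the complex, had no gained or lost region, but its retained regions had some of the largest shifts in rank. At its start (chrX:12761540-12762608) MED24 percentiles were 77.8 and 77.7 at 2 h, against 18.4 and 18.3 at 0 h, and MED1 percentiles at the start were 63.0 and 75.2 at 2 h, against 58.9 and 51.3 at 0 h. Upstream of it, chrX:12768348-12769012, 5.75 kb before the gene, had MED1 percentiles of 88.6 and 93.6 at 2 h, against 35.3 and 13.5 at 0 h. The MED24 region there had 95.8 and 96.4 at 2 h, against 23.5 and 66.8 at 0 h. At these places each 2 h library lay above each 0 h library in both proteins, by the widest margin at the start in MED24. A more distant region, chrX:12839810-12840605, was lower at 2 h, with MED1 percentiles of 42.1 and 29.2, against 65.2 and 54.1 at 0 h.

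Med26, the middle subunit that recruits elongation factors, showed both directions inside a single locus. Upstream, 7.10 kb before the gene, chr8:72555412-72556446 had MED1 percentiles of 96.0 and 95.2 at 2 h, against 86.0 and 87.7 at 0 h. Inside the gene, chr8:72521570-72522211 had MED1 percentiles of 31.5 and 51.7 at 2 h, against 83.8 and 70.0 at 0 h, and MED24 percentiles of 50.1 and 48.8 at 2 h, against 76.4 and 87.7 at 0 h. The start differed between the proteins: MED1 gave 63.8 and 72.0 at 2 h, against 80.9 and 80.1 at 0 h, whereas MED24 gave 72.3 and 78.9 at 2 h, against 58.7 and 73.3 at 0 h.

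The other middle genes had few differences. Med7, part of the hinge of the middle module, lost a region 8.43 kb before the gene in both proteins: chr11:46428153-46428508 had MED1 percentiles of 56.2 and 29.0 and MED24 percentiles of 18.4 and 1.84, all at 0 h. Med9 gained a MED1 region inside the gene, at 8.59 and 37.7. The start of Med31, a small conserved subunit, had MED24 percentiles of 59.2 and 74.4 at 2 h, against 74.7 and 82.8 at 0 h, and MED1 percentiles of 61.8 and 82.9 at 2 h, against 84.3 and 79.1 at 0 h. In all, the 9 middle genes had 18 MED1 regions (1 gained, 1 lost, 11 retained) and 18 MED24 regions (0 gained, 1 lost, 12 retained).

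Of the 7 head genes, with 9 MED1 regions (7 retained) and 10 MED24 regions (7 retained), Med18 was the only gene with a gained region. That region, chr4:132475891-132476750, lay 12.0 kb before the gene, with MED1 percentiles of 67.4 and 43.2 at 2 h and MED24 percentiles of 43.2 and 5.89 at 2 h. In the tail, Med16 gained a region inside the gene in both proteins, chr10:79901033-79901402, with MED1 percentiles of 39.4 and 47.4 and MED24 percentiles of 51.3 and 41.2 at 2 h. Med15 gained a MED24 region 10.1 kb before the gene, at 15.8 and 67.1; MED1 was called there only in clone b at 2 h, at 51.1.

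Med24 had the most retained MED1 regions of the Mediator genes. It had 12 MED1 regions, 9 of them retained, called 10 and 11 times at 2 h in clones a and b, against 10 and 10 at 0 h, and only 4 MED24 regions, 2 of them retained. Inside the gene the highest ranked MED1 region, chr11:98706819-98707909, had percentiles of 87.9 and 90.8 at 2 h, against 86.1 and 61.4 at 0 h. A region 4.70 kb outside the span, chr11:98734118-98734483, was lower at 2 h, with 27.9 and 41.2, against 46.1 and 57.8 at 0 h. Med1 had 4 MED1 regions: its start, and 3 weak ones near the far end of the gene, each called in a single 0 h library at percentiles of 12.2 or less, and it had 1 MED24 region, the start.

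**Figure D4:**
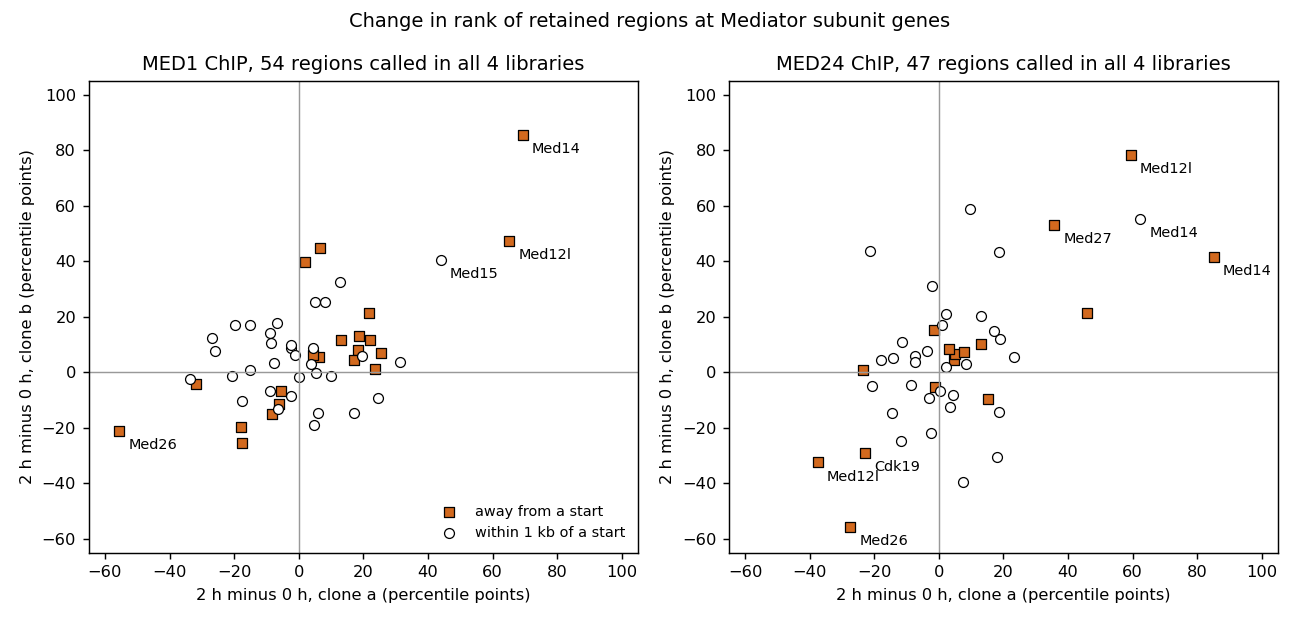
Difference in percentile, 2 h minus 0 h, in clone a (x axis) and clone b (y axis) for the 54 MED1 (left) and 47 MED24 (right) regions at Mediator genes that were called in all 4 libraries, ranked among all such regions of the protein; squares are away from a start and circles within 1 kb of it. Some regions at Med14 and Med12l lie far to the upper right in both proteins, and the region inside Med26 lies to the lower left. Other regions at Med14 (in MED1) and at Med12l (in both proteins) also lie to the lower left.

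Among retained regions, ranked now only against the other regions called in all 4 libraries, Mediator genes stood somewhat higher at 2 h. The median percentile of the 54 MED1 regions was 60.4 and 61.3 at 2 h in clones a and b, against 55.6 and 51.1 at 0 h, a mean difference of 7.52 points (two-sided exact permutation p = 0.333, n = 2 each). For the 47 MED24 regions it was 54.1 and 55.6 at 2 h, against 45.0 and 46.9 at 0 h, a difference of 8.90 points (two-sided exact permutation p = 0.333, n = 2 each). Of these 47 regions, 31 lay at starts. The 9154 retained MED24 regions at starts of all genes also stood higher at 2 h. Their medians were 52.7 and 51.5 in clones a and b, against 45.8 and 45.0 at 0 h. Taken region by region, the shift from 0 h to 2 h was averaged over the clones. Its median was -0.16 points at the 31 Mediator starts in MED24, against 3.64 points at all starts. Away from a start it was 5.77 points for the 16 Mediator regions, against -3.42 points for all. Whether the MED24 difference at Mediator genes follows the rise at starts of all genes was not tested. The 10882 retained MED24 regions of all genes away from a start stood lower at 2 h in both clones. The MED1 difference was 3.24 points with clone b at 0 h left out, and the MED24 difference was 14.0 points with clone a at 2 h left out. The MED24 difference turned to -2.91 points with peaks of score 100 or more and to -3.90 points when each library was limited to its 20000 best peaks.

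By region, 22 of 54 MED1 regions (40.7%) were higher at 2 h in both clones and 13 (24.1%) lower in both, against 29.7% and 36.2% of all 19064 retained MED1 regions assigned to a gene. For MED24, 20 of 47 (42.6%) were higher and 10 (21.3%) lower, against 36.5% and 35.4% of 20036. The median over regions of the mean shift was 2.96 points in MED1, against -1.34 for all, and 2.19 points in MED24, against 0.23 for all. At the starts alone it was 1.33 points in MED1 (33 regions), against -1.17 for all starts, and -0.16 in MED24 (31 regions), against 3.64 for all starts. Away from the starts it was 12.4 points in MED1 (21 regions), against -1.68 for all, and 5.77 in MED24 (16 regions), against -3.42 for all. Several of these MED1 regions lie at a single gene, Med24, which held 9 of the 54 retained MED1 regions. The Med24 regions away from a start had mean MED1 shifts of 25.8, 20.9, 16.8, 16.3, 12.5, 10.9 and -11.7 points. The MED1 median without Med24 was not computed.

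On this scale, with regions ordered by the smaller of the clones' shifts, the region before Med14 stood first in MED1, higher by 69.3 points in clone a and by 85.7 in clone b, followed by the region near P2ry14 inside Med12l (65.2 and 47.4) and the Med15 start (43.9 and 40.5). In MED24 the order was the region before Med12l, higher by 59.4 and 78.2 points, the Med14 start (62.4 and 55.3), the region before Med14 (85.1 and 41.6), the region inside Med27 (35.7 and 53.1) and the region near P2ry14 (45.7 and 21.3). Among regions lower at 2 h, the one inside Med26 moved by -55.6 and -21.0 points in MED1 and by -27.4 and -55.6 in MED24, and the distant region before Med12l by -17.6 and -25.3 in MED1 and by -37.4 and -32.4 in MED24.

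MED1 and MED24 overlapped at Mediator genes about as often as elsewhere. Of the 119 MED1 regions, 92 (77.3%) overlapped a MED24 region, against 77.6% of all assigned MED1 regions, and of the 115 MED24 regions, 93 (80.9%) overlapped a MED1 region, against 79.3%. Of the gained regions, 14 of 21 in MED1 (66.7%, against 61.8%) and 15 of 21 in MED24 (71.4%, against 66.5%) overlapped a region gained in the other protein. Of the lost ones it was 4 of 5 in MED1 (80%, against 43.2%) and 4 of 8 in MED24 (50%, against 33.8%), and of the retained ones 42 of 54 in MED1 (77.8%, against 84.7%) and 42 of 47 in MED24 (89.4%, against 81.8%). Most of the retained MED1 regions without a retained MED24 region lay at Med24, where 2 of 9 had such an overlap. No region was gained in either protein and lost in the other. Of the gained regions, 2 in MED1 and 1 in MED24 had no region of the other protein at all.

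Genes of 4 partner groups had gained shares below those of the Mediator genes with Med13l counted (17.6% in MED1 and 18.3% in MED24). Over all assigned regions the gained share was 17% in MED1 and 15.8% in MED24. General transcription factor genes had 4 gained of 46 MED1 regions (8.70%) and 6 of 56 MED24 regions (10.7%). RNA polymerase II subunit genes had 2 of 16 (12.5%) and 2 of 18 (11.1%), pause release genes 8 of 64 (12.5%) and 6 of 56 (10.7%), and genes of cohesin and its loader 8 of 62 (12.9%) and 8 of 59 (13.6%). Without Med13l the Mediator counts were 11 of 91 in MED1 and 11 of 90 in MED24. The MED1 share was then below those of the RNA polymerase II, pause release and cohesin genes. It remained above that of the general transcription factor genes. The MED24 share was then below that of the cohesin genes and above those of the other lists. These differences between lists were not tested.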

How the data were processed

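Peak lists of 8 ChIP-seq libraries were used, and the 4 input samples were not analysed here; groups were taken from the sample titles. Reads were processed with Bowtie2, bedtools and MACS2 on the mm10 build, per the submitters' processing notes; versions, settings and what the inputs were used for are not given in these sources. The authors deposited peaks per library, not pooled. For each MED1 peak the authors deposited a score, its fold enrichment as a ratio, the −log10 p-value, the −log10 q-value and the summit offset; in 100% of these peaks the score equalled the −log10 q multiplied by 10 with decimals dropped. The deposited MED24 lists hold coordinates, a peak name and a score whose scale is not stated, and no p or fold. The lowest score was 20 in each list. Each such value is the authors' own and served only for ranks and thresholds inside its own list. No list gives read numbers, so the precision is limited by the 2 clones per group.

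With Python 3.11.15 and pandas 2.3.3, peaks of a protein were merged at an overlap of at least 1 bp, and regions were assigned to the nearest protein-coding span within 100 kb (RefSeq, GRCm38.p6), which succeeded for 91.6% of MED1 and 90.7% of MED24 regions. The gene table gives no exons, so places are named only as start, inside or outside a span. A region's rank is that of its best peak. Peak numbers, shares and median ranks were compared by two-sided exact permutation tests of 2 libraries against 2. The merging, assignment and classes were tested on simulated peak lists. All 33 genes are accounted for; values in each library are given for Med1, Med24, up to 8 genes with the most gained and lost regions, and per protein 5 gained, 5 lost, 5 higher and 5 lower regions. The members and lists were chosen with earlier results of these data known. Alternatives were a score of at least 100, the 20000 best peaks, assignment within 20 kb, no Med13l, ranking by fold, summed peak values, an overlap of 50% of the shorter peak, a start window of 2.5 kb, leaving out each library and a replicate block; the labels' letters a and b name clones, which pairs the libraries of a clone across the times. An alternative in which tied regions go to 1 gene was chosen after seeing the data.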

Additional observations from a re-analysis of the deposited data

Results flagged for a closer look

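The share of a library's peaks that lay at Mediator genes moved in opposite directions in the clones. For MED1 the share at 2 h minus that at 0 h was, in percentage points, -0.000864 for clone a and 0.00275 for clone b. For MED24 it was 0.00142 for clone a and -0.0134 for clone b. Each clone has 1 library per time, so the difference between the clones was not tested.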

How the results depend on the processing

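No test was made on single regions, and the permutation tests of 2 libraries against 2 cannot give a p below 0.333, so the values below describe stability and not significance. When each library was limited to its 20000 best peaks, the MED1 difference in peaks at Mediator genes turned to -2, and gained regions numbered 7 in MED1 and 8 in MED24. With a score of at least 100, 13 MED1 and 11 MED24 regions were gained and 1 and 5 were lost. With assignment within 20 kb, 10 MED24 regions were gained, and 3 MED1 and 5 MED24 regions were lost. Without Med13l, 11 regions were gained in each protein and 3 MED1 regions were lost.

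The MED1 difference in share, 0.000941 percentage points, turned to -0.0186 (score of at least 100), -0.01 (20000 peaks), -0.00609 (within 20 kb) and -0.0134 (without Med13l), and ran from -0.00762 to 0.0120 when single libraries were left out. The MED24 difference in share, -0.00601, turned to 0.00841 (score of at least 100), 0.01 (20000 peaks) and 0.000484 (tied regions given to 1 gene). The MED24 median rank difference turned to -2.91 (score of at least 100) and -3.90 (20000 peaks). The cause was not tested.

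Leaving out single libraries gave 21 to 34 gained and 5 to 15 lost MED1 regions, and 22 to 31 gained and 9 to 18 lost MED24 regions. The highest gained count in each protein came without the 2 h library of clone a, and the highest lost counts without the 0 h library of clone a (MED1) or clone b (MED24). With the clone as a replicate block, counting regions within each clone and averaging, 31.5 MED1 and 29.5 MED24 regions were gained and 15 and 19 lost. The paired differences in peaks and ranks equal the unpaired ones by arithmetic, so this setting cannot show whether they are stable. For peaks and median ranks in both proteins the two-sided exact paired permutation p was 0.5, the smallest that 2 pairs can give. With Med27 to Med30 counted in the head or in the tail, gained regions there numbered 3 in either module for MED1, and 5 in the head and 6 in the tail for MED24. The 31 genes with a called start in all 8 libraries remained 31 with a window of 2.5 kb. Unknown read depth limits statements about regions without a call.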
